A study of Homo sapiens with 101 samples.

Results

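The proteasome is the ATP-driven protease that degrades ubiquitin-tagged proteins, and its genes were followed here in HT1080 cells given each of 11 compounds. Members were the genes whose symbol starts with PSMA, PSMB, PSMC, PSMD, PSME, PSMF or PSMG, each read from its brightest probe set, judged by the mean of every array. The symbol rule found 51 genes of 19774 with a probe set. Of these, 44 encode proteasome subunits, regulators or assembly factors, and 7 only share the symbol. PSMA8, the testis form of PSMA7, had a mean log2 value under 4 in all 17 groups and was not tested, which left 43 proteasome genes of 11496 genes tested. They comprise 14 subunits of the 20S core, 14 of the 19S regulator, 3 immunoproteasome subunits, 3 assembly factors of the 19S, 4 of the 20S, and 5 activators or inhibitors. PSMB11, PSMC5, PSMD7 and PSMD13 were not analysed here.

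HT1080 is a human fibrosarcoma line, obtained from ATCC. Every compound was given at a single dose, set so that total p53 protein rose 1.5-fold, from stocks in DMSO that left 0.1% vehicle in the medium, and the labels used here state no length of exposure. The labels name the compounds by code, and the usual reading of each code is given here. Set against the control labelled DMSO_pooled were MMC (mitomycin C) at 0.1 µM, NCS (neocarzinostatin) at 10 ng per ml, H2O2 (hydrogen peroxide) at 100 µM, ENU (N-ethyl-N-nitrosourea) at 2 mM, GAD at 2 mM and tBHQ (tert-butylhydroquinone) at 200 µM. BRO at 600 µM, CUR (curcumin) at 10 µM, ETP (etoposide) at 0.3 µM and QUE (quercetin) at 30 µM had DMSO controls of their own, and MMS (methyl methanesulfonate) at 200 µM had the control labelled MMS_CTL. GAD and BRO are kept as codes. The tie of 6 compounds to DMSO_pooled is inferred, so these 6 comparisons share their 6 control samples. MMC and H2O2 had 5 samples and every other group had 6. The labels do not say that these were separate cultures, so the p-values may measure only technical spread.

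The 20S core is a barrel whose outer rings are built of alpha subunits and whose inner rings hold the proteolytic beta subunits. The 19S regulator caps it, recognises ubiquitin chains and unfolds the substrate, and dedicated chaperones assemble both particles. When proteasome activity falls, the transcription factor NRF1 (gene NFE2L1) raises the subunit genes together, and NRF2 (gene NFE2L2) can raise some of them in oxidative or electrophilic stress. Interferon signalling, in part through IRF1, induces 3 alternative catalytic subunits and the PA28 activator, which shift the peptides cut for antigen presentation.

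Values are log2 probe set summaries, compared only between groups for the same gene. Of 10 mesenchymal marker genes, 9 were at 4 or more in all groups, and the 11 epithelial, leukocyte and endothelial markers were under 4 in every group. In bulk RNA, fewer cells expressing a gene and less RNA per cell cannot be told apart. The library labelled QUE replicate 2 and that labelled ETP replicate 2 went against their groups. For GCLC, a glutathione synthesis gene, QUE replicate 2 was at 7.94 where the other 5 QUE samples were at 9.25 to 9.58 and the controls at 8.22 to 8.49. ETP replicate 2 was at 9.44 for the same gene, where the other 5 ETP samples were at 7.72 to 8.22. In PSMD5, a chaperone of the 19S, QUE replicate 2 was at 7.12 against 5.33 to 6.48 in the others. ETP replicate 2 was at 5.96 for PSMD5 against 7.61 to 7.75 in the others. For GCLC each library lay within the range of the other compound's group, and for PSMD5 only ETP replicate 2 did. Both genes were picked after their values were seen. Whether these 2 libraries were exchanged was not tested, and both keep their labels here. Without QUE replicate 2, all 20 members called lower in QUE were called lower again. Other values in QUE and ETP include both libraries unless stated.

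By their brightest probe sets, the genes of the 20S and 19S moved by small amounts and mostly together. All 3 immunoproteasome genes fell in GAD and BRO, and 1 or 2 of them in 4 other compounds, by calls made without pairing the samples. A gene was called when its Benjamini-Hochberg adjusted p, over all 11496 genes in limma, was under 0.05, whatever its fold. In GAD 22 of 43 members rose, or 51.2%, where 32.8% of all genes tested rose, and 9 fell where 29% of all genes fell. In BRO 11 members rose, or 25.6%, against 13.5% of all genes, and 7 fell against a background of 16.8%. Without BRO_DMSO replicate 3, 7 members rose in BRO. In tBHQ 11 rose, again 25.6%, with 17.7% of all genes, and 6 fell with 14.2%, or 10 with the replicate number as a block, where 24.4% of all genes fell. CUR raised 5 members, or 11.6%, where 2.97% of all genes rose, and lowered 0 where 2.14% fell. The CUR count fell to 2 or 3 when any single sample of CUR or CUR_DMSO other than CUR replicate 5 was left out, and rose to 10 without CUR replicate 5. With the replicate number as a block, 17 members rose in CUR and 4 fell, where 15.9% of all genes rose and 9.11% fell under that block. In QUE the pattern turned, with 20 members lower, or 46.5%, against 16.4% of all genes. No member rose in QUE by limma, where 17% of all genes did. At an unadjusted p under 0.05 there was 1 higher member, with no share of all genes given at that threshold. Without QUE replicate 2, 26 members fell and PSMG3 rose, with 23.9% of all genes lower. Without either QUE replicate 4 or QUE_DMSO replicate 6, 13 members fell. Leaving out a sample also moved the share of all genes called. Apart from QUE replicate 2, that share is not given for the samples left out in this paragraph.

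By calls at the adjusted threshold, the members were near the background or below it in the remaining compounds. Shares of all genes are given at that threshold only, so counts at an unadjusted p have no background beside them. MMS raised 8 members, or 18.6%, against 19.7% of all genes, and lowered 5 against 15.4%. In MMS 4 or 5 members rose without any 1 of MMS replicates 1 and 2 and MMS_CTL replicates 2, 5 and 6. No share of all genes is given for those fits. ENU raised 4, or 9.3%, against 17.1%, and lowered 5 against 16.1%. No member was called in MMC, where 0.261% of all genes rose and 0.0087% fell, and 1 member had an unadjusted p under 0.05. NCS also called 0, with 4.64% of all genes higher and 3.06% lower, and 3 members at an unadjusted p under 0.05. In NCS the replicate block called 4 higher and 8 lower, where it called 20.8% of all genes higher and 16.1% lower. H2O2 called 0 members, with backgrounds of 1.42% higher and 0.47% lower and 0 members at an unadjusted p under 0.05. ETP called 0, with backgrounds of 3.44% and 1.64%, and 8 members, all lower, had an unadjusted p under 0.05. Without ETP replicate 2, PSME2 rose in ETP by 0.26 ± 0.07 (SE; adjusted p = 0.0394, limma) and PSMG4 fell by 0.30 ± 0.07 (adjusted p = 0.017). In that fit 6.19% of all genes rose and 4.58% fell. No rise of any member, read from its brightest probe set, reached 1.5-fold in any compound. Some other sets of the same genes rose further in GAD, by 1.08 ± 0.15 for PSMD12, 0.84 ± 0.11 for PSMD11 and 0.94 ± 0.26 for PSMC2 (log2). Not all did, and the other set of PSMD1 changed by 0.16 ± 0.09 in GAD.

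**Figure D1:**
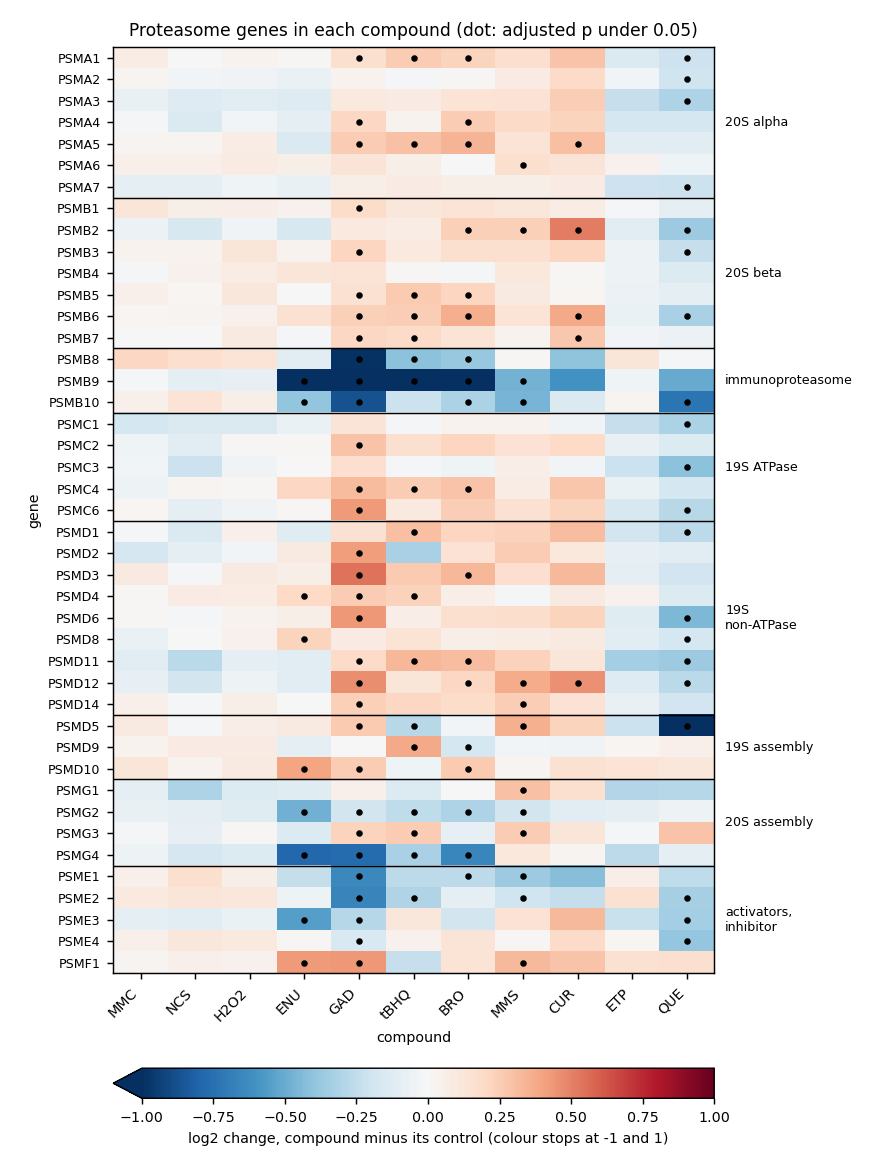
Log2 change of each of the 43 members (rows, grouped by role) in each of the 11 compounds (columns), compound minus its control. Dots mark calls at an adjusted p under 0.05. The 20S and 19S rows are red in GAD and blue in QUE, and PSMB9 is dark blue in ENU, GAD, tBHQ and BRO.

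The 28 subunits of the 20S and 19S showed the joint movement most plainly. In GAD 18 of 28 rose and 0 fell, and all 28 changes were above 0, with a median of 0.20 (log2) against 0.03 over all genes tested. In BRO 10 rose, with a median of 0.17 against -0.02 over all genes. In tBHQ 9 rose (median 0.12), in CUR 5 (median 0.21), in MMS 4 (median 0.14) and in ENU 2 (median 0.01). The medians over all genes were 0.02 in tBHQ, 0.04 in CUR, 0.06 in MMS and 0.01 in ENU. The share called higher in MMS and in ENU was below that of all genes given above. QUE lowered 15 of 28, with all 28 changes below 0 and a median of -0.20, against 0.00 over all genes. Without QUE replicate 2, 19 of the 28 were called lower in QUE. In ETP 26 of 28 changes were below 0 (median -0.10), with 0 called, and 23 were below 0 without ETP replicate 2. In MMC the changes split evenly, with 14 above 0.

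The mean of the 28 subunits in each sample shows the same order within the sets. It was 10.60 to 10.84 in DMSO_pooled (median 10.67) and 10.88 to 10.96 in GAD (median 10.92), and the groups did not overlap. BRO ran from 10.43 to 10.49 (median 10.45) and BRO_DMSO from 10.18 to 10.38 (median 10.29), again without overlap. QUE lay at 10.68 to 10.87 (median 10.79), wholly below QUE_DMSO at 10.94 to 11.10 (median 10.98). tBHQ, at 10.69 to 10.97 (median 10.83), overlapped its controls. CUR, at 10.55 to 10.80 (median 10.67), overlapped CUR_DMSO at 10.29 to 10.55 (median 10.50) only at the edge, and the lowest control was CUR_DMSO replicate 5.

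**Figure D2:**
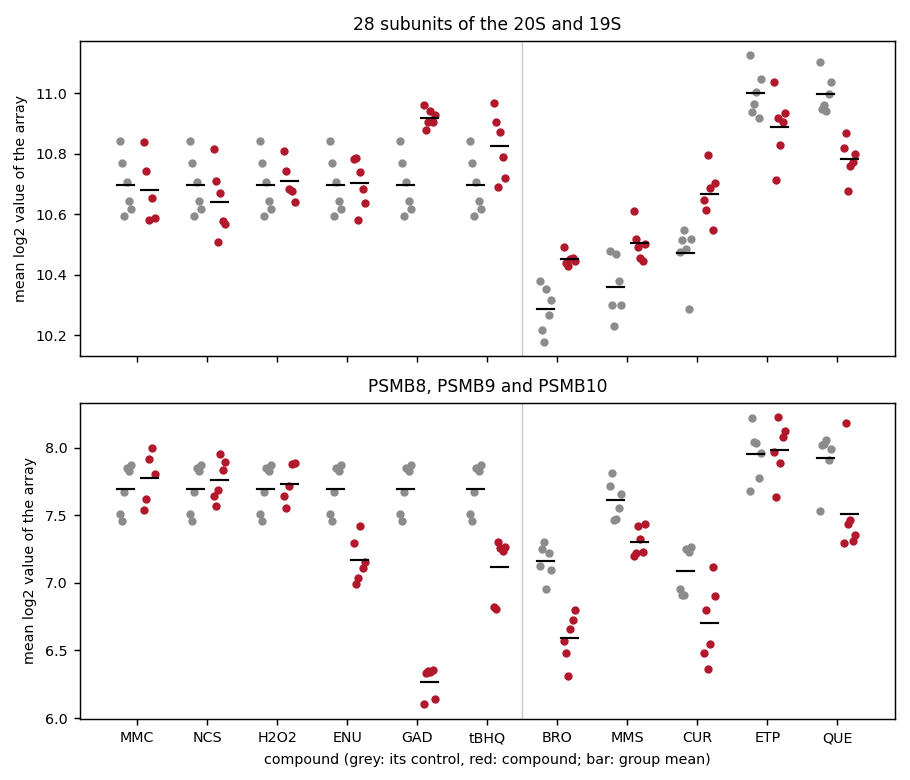
Mean log2 value in each sample over the 28 subunits of the 20S and 19S (top) and over PSMB8, PSMB9 and PSMB10 (bottom), for each compound (red) beside its control (grey), with bars at the group means. The first 6 compounds share their grey points. In the top panel GAD lies above its controls and QUE below; in the bottom panel GAD lies at 6.10 to 6.35 and its controls at 7.46 to 7.87.

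Among the alpha subunits, which form the outer rings and the gate of the 20S, PSMA5 was called higher in 4 compounds. It stood at 10.27 to 10.54 in DMSO_pooled (median 10.32), at 10.56 to 10.74 in GAD (median 10.59) and at 10.51 to 10.81 in tBHQ (median 10.66). All GAD samples lay above all controls, and 5 of 6 tBHQ samples did. The rise was 0.25 ± 0.07 in GAD (SE; adjusted p = 0.00413, limma) and 0.29 ± 0.07 in tBHQ (adjusted p = 0.00875). In BRO PSMA5 went from 9.75 to 9.97 in the controls (median 9.90) to 10.14 to 10.27 (median 10.21), without overlap, a rise of 0.34 ± 0.06 (adjusted p = 0.00123). In CUR it rose by 0.30 ± 0.08 (adjusted p = 0.0421), and that call was lost without any single sample of CUR or CUR_DMSO other than CUR replicate 5. PSMA1 rose in GAD, tBHQ and BRO by 0.16, 0.25 and 0.23. It fell in QUE, from 12.03 to 12.16 in the controls to 11.79 to 11.94, with no overlap. PSMA4 rose in GAD (0.20 ± 0.06) and BRO (0.25 ± 0.08), and PSMA6 rose in MMS alone among the calls (0.16 ± 0.05, adjusted p = 0.0305). PSMA2, PSMA3 and PSMA7 were called only as lower, in QUE, by 0.20, 0.31 and 0.22.

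The beta subunits line the inner rings, and PSMB5, PSMB6 and PSMB7 carry the chymotrypsin-like, caspase-like and trypsin-like sites. PSMB6 was at 9.82 to 10.09 in BRO_DMSO (median 9.92) and 10.22 to 10.34 in BRO (median 10.31). In CUR it was at 10.35 to 10.75 (median 10.53) against 10.10 to 10.23 in its controls (median 10.18). Neither pair of groups overlapped, and the rises were 0.37 ± 0.07 in BRO (adjusted p = 0.00118, limma) and 0.38 ± 0.08 in CUR (adjusted p = 0.0189). PSMB6 also rose in GAD (0.23 ± 0.06) and tBHQ (0.25 ± 0.07). In QUE it fell by 0.32 ± 0.07 (adjusted p = 0.00778), with 5 of 6 samples below all controls. PSMB5 rose in GAD, tBHQ and BRO by 0.15, 0.26 and 0.21, and PSMB7 in GAD, tBHQ and CUR by 0.20, 0.19 and 0.27. Neither was called in QUE. None of PSMB5, PSMB6 and PSMB7 was called in MMC, NCS, H2O2, ENU, MMS or ETP, where their changes ran from -0.06 to 0.15.

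PSMB2, a structural beta subunit, had the largest rise in CUR by the brightest probe sets. It was at 10.37 to 10.70 in CUR_DMSO (median 10.51) and at 10.89 to 11.18 in CUR (median 11.04), with no overlap. The rise of 0.51 ± 0.09, or 42.7%, had an adjusted p of 0.0054 in limma. A second, dimmer probe set of PSMB2 changed by -0.01 ± 0.15 in CUR, so the rise rests on the brighter one. In QUE PSMB2 fell from 11.22 to 11.33 (median 11.29) to 10.63 to 11.05 (median 10.98), by 0.37 ± 0.08 (adjusted p = 0.00531), and the groups did not overlap. PSMB3 rose in GAD (0.21 ± 0.06) and fell in QUE (by 0.23 ± 0.07). PSMB1 rose in GAD (0.18 ± 0.06), and PSMB4 was called in no compound.

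By calls without the replicate block, all 3 immunoproteasome subunits fell in GAD and BRO, and 1 or 2 of them in tBHQ, ENU, MMS and QUE. PSMB9, which takes the place of PSMB6, was at 7.31 to 7.95 in DMSO_pooled (median 7.71) and at 5.03 to 5.45 in GAD (median 5.19). Every GAD sample lay below every control, and the fall of 2.41 ± 0.12 on the log2 scale was the largest of any member (adjusted p = 1.64e-08, limma). As a linear level PSMB9 fell by 81.2% in GAD. tBHQ, at 5.99 to 6.84 (median 6.66), and ENU, at 6.28 to 6.95 (median 6.50), also lay wholly below these shared controls. Their falls were 1.12 ± 0.16 (adjusted p = 0.000158) and 1.08 ± 0.14 (adjusted p = 7.65e-05).

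PSMB9 fell against separate controls as well. In BRO it went from 6.60 to 7.40 (median 6.97) to 5.74 to 6.30 (median 6.01), and in MMS from 7.14 to 7.58 (median 7.40) to 6.68 to 7.11 (median 6.93). In both compounds all samples lay below all controls, with falls of 1.01 ± 0.14 (adjusted p = 0.00025) and 0.47 ± 0.10 (adjusted p = 0.00268). In CUR PSMB9 changed by -0.60 ± 0.18, with 5 of 6 samples below all controls. It missed the threshold (adjusted p = 0.0653, limma) in the fit without the replicate block. With that block 4 members fell in CUR, and they are not named here. In QUE the PSMB9 change of -0.51 ± 0.19 missed the threshold too (adjusted p = 0.0564), with 4 of 6 samples below all controls. Without QUE replicate 2, which was at 7.89, PSMB9 fell in QUE by 0.68 ± 0.12 (adjusted p = 0.000811).

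PSMB8, which replaces PSMB5, was at 7.80 to 8.16 in DMSO_pooled (median 8.02), 6.90 to 7.22 in GAD (median 7.01) and 7.39 to 7.74 in tBHQ (median 7.68). Both compounds lay wholly below the controls. The falls were 0.99 ± 0.08 in GAD (adjusted p = 3.18e-07), 0.41 ± 0.09 in tBHQ (adjusted p = 0.00296) and 0.38 ± 0.08 in BRO (adjusted p = 0.00284). In ENU, where PSMB9 fell, PSMB8 changed by -0.11 ± 0.09 (adjusted p = 0.366), and in MMS by 0.01 ± 0.07 (adjusted p = 0.879). Without the replicate block, PSMB8 changed by -0.40 ± 0.12 in CUR and was not called (adjusted p = 0.0625), nor was it in QUE (-0.01 ± 0.10, adjusted p = 0.952).

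PSMB10, which replaces PSMB7, was at 7.23 to 7.70 in DMSO_pooled (median 7.43) and 6.37 to 6.72 in GAD (median 6.58), without overlap. It fell by 0.87 ± 0.09 in GAD (adjusted p = 3.35e-06, limma). In ENU, at 6.71 to 7.33 (median 7.11), 5 of 6 samples lay below all controls, and the fall was 0.39 ± 0.11 (adjusted p = 0.0143). MMS and BRO lowered it by 0.47 ± 0.10 and 0.32 ± 0.10, and its changes in tBHQ (-0.21 ± 0.11) and CUR (-0.14 ± 0.13) were not called. In QUE PSMB10 ran from 6.91 to 8.08 (median 7.15) against 7.60 to 8.14 in QUE_DMSO (median 8.06), and it fell by 0.73 ± 0.17 (adjusted p = 0.00845). The sample at 8.08 was QUE replicate 2, and the fall was 0.89 ± 0.10 without it. In MMC, NCS, H2O2 and ETP none of PSMB8, PSMB9 and PSMB10 was called, and their changes ran from -0.10 to 0.21.

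Taking the difference of each immunoproteasome subunit and its standard partner within a sample cancels any constant added to that sample's log2 values. The shift also holds the change of the partner, and PSMB6 itself rose in GAD, tBHQ, BRO and CUR. PSMB9 minus PSMB6 was -3.14 to -2.26 in DMSO_pooled and -5.50 to -4.98 in GAD, so all 6 GAD samples lay below all controls. The shift was -2.65 in GAD, -1.37 in both tBHQ and BRO, -1.23 in ENU and -0.61 in MMS, each with 6 of 6 samples below all controls. PSMB8 minus PSMB5 shifted by -1.14 in GAD, -0.67 in tBHQ and -0.59 in BRO, also in 6 of 6 samples, but by -0.12 in ENU and -0.07 in MMS. PSMB10 minus PSMB7 shifted by -1.07 in GAD and -0.51 in MMS with 6 of 6 below. In CUR 5 of 6 samples lay below all controls for PSMB9 minus PSMB6, with a shift of -0.98.

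**Figure D3:**
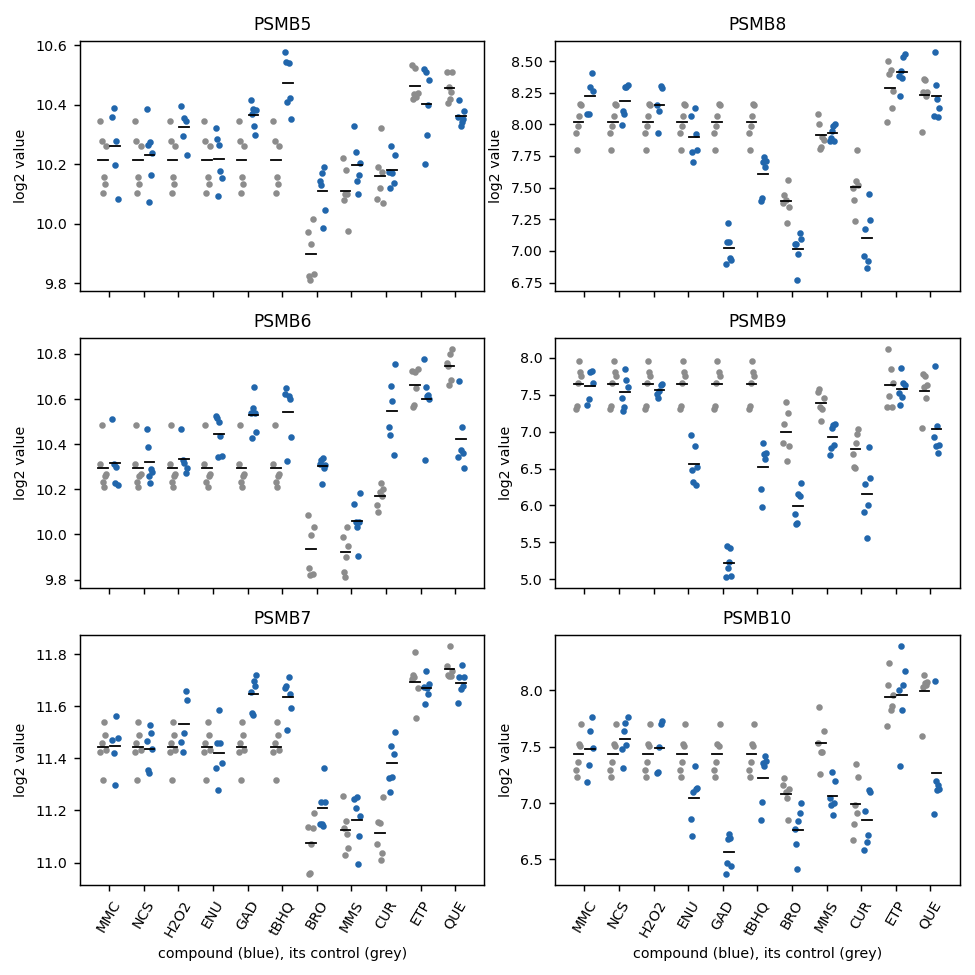
Log2 value in each sample of the standard catalytic subunits PSMB5, PSMB6 and PSMB7 (left) and of the immunoproteasome subunits that replace them, PSMB8, PSMB9 and PSMB10 (right). Blue points are the compound, grey points its control and bars the group means, and each panel has its own axis. PSMB9 in GAD lies at 5.03 to 5.45, apart from every other group.

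The ATPases of the 19S base form the ring that unfolds substrates. PSMC6 rose in GAD by 0.42 ± 0.11 (adjusted p = 0.00407, limma), from 10.01 to 10.69 in the controls (median 10.20) to 10.48 to 10.79 (median 10.69), and 2 of 6 samples lay above all controls. PSMC4 rose in GAD (0.32 ± 0.09), BRO (0.29 ± 0.08) and tBHQ (0.25 ± 0.07), and PSMC2 in GAD alone among the calls (0.29 ± 0.07). PSMC3 was called only in QUE, where it fell from 9.92 to 10.27 (median 10.16) to 9.44 to 9.81 (median 9.76). The QUE and control samples did not overlap, and the fall was 0.41 ± 0.09 (adjusted p = 0.00557). PSMC1 and PSMC6 fell in QUE by 0.32 ± 0.07 and 0.28 ± 0.08.

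Among the other 19S subunits was the largest rise of the family by the brightest probe sets, that of PSMD3 in GAD. PSMD3, a lid subunit, was at 8.07 to 8.52 in DMSO_pooled (median 8.18) and at 8.67 to 8.90 in GAD (median 8.78). All GAD samples lay above all controls, with a rise of 0.55 ± 0.08, or 46.1% (adjusted p = 7.45e-05, limma). In BRO PSMD3 rose by 0.33 ± 0.10 (adjusted p = 0.0179). PSMD12, another lid subunit, was called in 5 compounds. It was at 10.04 to 10.57 in DMSO_pooled (median 10.27) and 10.59 to 10.89 in GAD (median 10.75), and in MMS it was at 10.17 to 10.26 (median 10.22) against 9.67 to 10.06 (median 9.86). Neither pair overlapped, and the rises were 0.47 ± 0.09 (adjusted p = 0.000566) and 0.37 ± 0.07 (adjusted p = 0.00171). PSMD12 also rose in CUR (0.46 ± 0.12, adjusted p = 0.0493) and BRO (0.21 ± 0.07, adjusted p = 0.0467). It fell in QUE by 0.27 ± 0.09 (adjusted p = 0.031). A second, dimmer set of PSMD12 rose by 1.08 ± 0.15 in GAD, 0.51 ± 0.11 in BRO and 0.39 ± 0.11 in MMS. That set changed by only 0.09 ± 0.22 in CUR and -0.03 ± 0.12 in QUE, so those calls rest on the brighter set.

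PSMD3 and PSMD12 are shown by their promoters because, by the brightest probe sets, they rose most in GAD among the core subunits. Both also hold the core of the antioxidant response element bound by NRF1 and NRF2. PSMD6, PSMC6 and PSMD2, which also rose in GAD, held no such match. The sequences are RefSeq, build GRCh38.p14, the 250 bases before the annotated start, 5′ to 3′ on the gene's strand, with the match to TGACNNNGC in capitals. PSMD3 spans chr17:39980557-39980806 on the plus strand and PSMD12 spans chr17:67366578-67366827 on the minus strand.
PSMD3: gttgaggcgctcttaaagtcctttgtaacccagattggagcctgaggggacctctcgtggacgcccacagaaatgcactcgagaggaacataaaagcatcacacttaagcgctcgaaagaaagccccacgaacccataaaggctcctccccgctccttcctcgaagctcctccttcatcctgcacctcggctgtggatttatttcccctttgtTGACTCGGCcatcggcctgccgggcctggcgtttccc
PSMD12: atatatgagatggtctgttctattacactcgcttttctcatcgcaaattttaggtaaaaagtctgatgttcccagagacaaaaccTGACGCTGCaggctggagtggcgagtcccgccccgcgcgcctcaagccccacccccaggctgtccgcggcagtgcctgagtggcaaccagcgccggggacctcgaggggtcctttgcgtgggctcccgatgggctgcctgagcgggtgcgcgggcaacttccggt
The match begins 37 bases before the start in PSMD3 and 165 before it in PSMD12. A match is a description of letters and does not show binding.

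**Figure D4:**
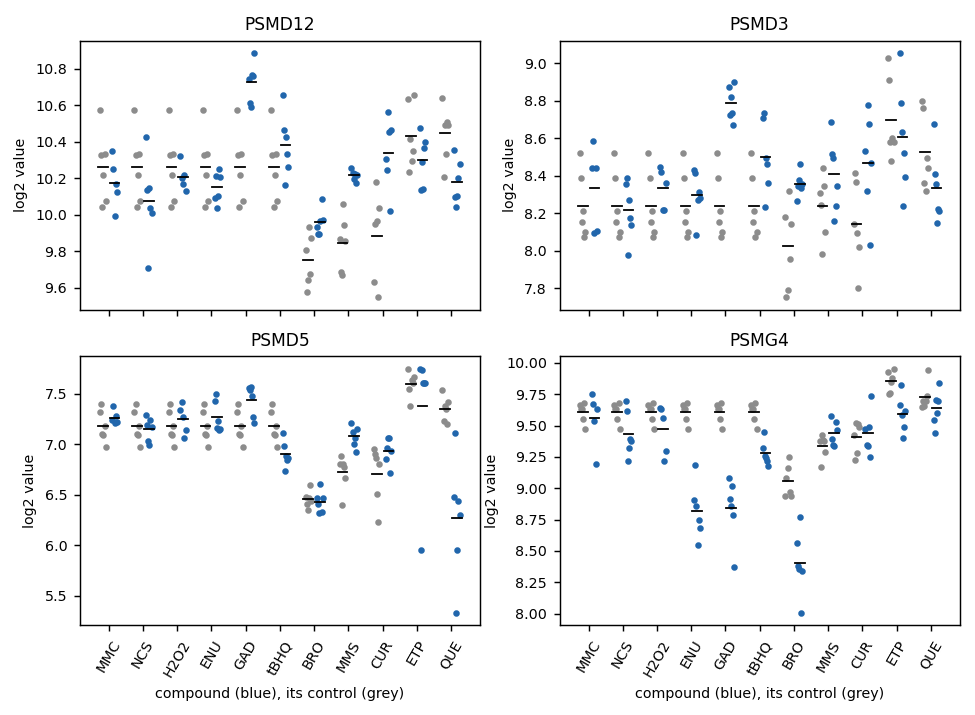
Log2 value in each sample of PSMD12 and PSMD3 (lid subunits), PSMD5 (19S assembly) and PSMG4 (20S assembly), compound in blue beside its control in grey, with bars at the group means. PSMD12 in GAD lies at 10.59 to 10.89, above its controls, and PSMD5 in QUE runs from 5.33 to 7.12, below its controls.

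PSMD6, a lid subunit, rose in GAD by 0.44 ± 0.06 (adjusted p = 2.83e-05), from 10.55 to 10.77 (median 10.66) to 11.02 to 11.20 (median 11.10), with no overlap. In QUE it fell by 0.45 ± 0.11 (adjusted p = 0.0115), with 5 of 6 samples below all controls. PSMD2, a scaffold of the base, was called in GAD alone (0.42 ± 0.11). PSMD14, the deubiquitinase of the lid, rose in GAD (0.24 ± 0.07) and MMS (0.25 ± 0.07). PSMD4, a ubiquitin receptor, rose in GAD, tBHQ and ENU by 0.25, 0.23 and 0.20. PSMD11, a lid subunit, rose in tBHQ (0.33 ± 0.09), BRO (0.31 ± 0.07) and GAD (0.19 ± 0.08). The GAD call was lost without GAD replicate 4 or DMSO_pooled replicate 5, and without several other single samples. A dimmer probe set of PSMD11 rose more, by 0.46 ± 0.09 in tBHQ, 0.57 ± 0.08 in BRO and 0.84 ± 0.11 in GAD. In QUE PSMD11 fell by 0.36 ± 0.10, whereas that dimmer set changed by 0.14 ± 0.12. PSMD1, the other scaffold, rose in tBHQ by 0.30 ± 0.11 and fell in QUE by 0.26 ± 0.09, and PSMD8 rose in ENU by 0.23 ± 0.07 and fell in QUE by 0.17 ± 0.06.

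The assembly factors were mixed, with PSMG4 and PSMG2 lower in compounds where PSMG3 or PSMD10 was higher. PSMG4, which pairs with PSMG3 to build the alpha ring, was at 9.47 to 9.68 in DMSO_pooled (median 9.63). It was at 8.54 to 9.18 in ENU (median 8.81), 8.37 to 9.08 in GAD (median 8.89) and 9.18 to 9.45 in tBHQ (median 9.25). All 3 compounds lay wholly below the controls, with falls of 0.79 ± 0.10 (adjusted p = 4.7e-05), 0.77 ± 0.10 (adjusted p = 2.45e-05) and 0.33 ± 0.06 (adjusted p = 0.00164) in limma. BRO lowered it too, from 8.94 to 9.25 (median 9.03) to 8.00 to 8.77 (median 8.37), by 0.66 ± 0.11 (adjusted p = 0.000824). PSMG3, its partner, rose instead in GAD (0.23 ± 0.07), tBHQ (0.25 ± 0.08) and MMS (0.25 ± 0.08).

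PSMG2, which acts with PSMG1, fell in 5 compounds. The largest fall was in ENU, from 10.78 to 11.10 (median 10.86) to 10.31 to 10.52 (median 10.40), by 0.48 ± 0.07 (adjusted p = 0.000149, limma), without overlap. It fell by 0.31 ± 0.07 in BRO, 0.26 ± 0.08 in tBHQ, 0.19 ± 0.07 in GAD and 0.19 ± 0.07 in MMS, and the MMS fall was at the edge of the threshold (adjusted p = 0.0499). PSMG1 was called only in MMS, where it rose by 0.29 ± 0.10.

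Of the chaperones that build the 19S base, PSMD5 had the largest change in QUE. QUE samples lay at 5.33 to 7.12 (median 6.37) and the controls at 7.20 to 7.54 (median 7.37), with no overlap. PSMD5 fell by 1.08 ± 0.22 in QUE (adjusted p = 0.00507, limma), and by 1.25 ± 0.18 without QUE replicate 2. It rose in MMS (0.35 ± 0.09) and GAD (0.26 ± 0.09) and fell in tBHQ (by 0.27 ± 0.09). PSMD9 was higher in tBHQ, at 9.75 to 9.79 (median 9.77) against 9.28 to 9.45 (median 9.41), by 0.38 ± 0.05 (adjusted p = 0.00012). The small fall of PSMD9 in BRO, by 0.17 ± 0.06 (adjusted p = 0.0467), was not seen in its dimmer probe set, which changed by 0.18 ± 0.11. PSMD10, also known as gankyrin, rose in ENU (0.39 ± 0.07), GAD (0.26 ± 0.07) and BRO (0.26 ± 0.08). Its other bright set changed by 0.31 ± 0.09 in ENU and 0.17 ± 0.07 in GAD, but by 0.06 ± 0.07 in BRO.

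PSME1 and PSME2 form the PA28 activator that opens the 20S without ubiquitin. PSME2 was at 10.07 to 10.21 in DMSO_pooled (median 10.14), 9.32 to 9.60 in GAD (median 9.50) and 9.78 to 9.92 in tBHQ (median 9.83). Both compounds lay wholly below the controls, with falls of 0.66 ± 0.06 (adjusted p = 9.84e-07) and 0.30 ± 0.05 (adjusted p = 0.000843) in limma. It also fell in MMS (by 0.20 ± 0.06) and QUE (by 0.33 ± 0.10). PSME1 fell in GAD, from 10.01 to 10.63 (median 10.38) to 9.44 to 9.99 (median 9.72), by 0.65 ± 0.11 (adjusted p = 0.000256). It fell by 0.37 ± 0.10 in MMS and 0.26 ± 0.07 in BRO. Neither gene was called in CUR in the fit without the replicate block. PSME2 was at 9.55 to 9.82 in CUR (median 9.72) and 9.85 to 10.09 in CUR_DMSO (median 9.91), without overlap. PSME1 was at 9.06 to 9.88 in CUR (median 9.45) and 9.62 to 10.1 in CUR_DMSO (median 9.87).

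The nuclear activators PSME3 (PA28 gamma) and PSME4 (PA200) gave readings that depended on the probe set. PSME3 fell in ENU by 0.55 ± 0.08 (adjusted p = 0.000251), without overlap, and its other bright probe set changed by -0.54 ± 0.10. Of its dimmer sets, 1 changed the other way in ENU, by 0.14 ± 0.19, and 1 by -0.01 ± 0.24. In GAD PSME3 fell by 0.29 ± 0.08 and the other bright set changed by -0.26 ± 0.10, while a dimmer set changed by 0.93 ± 0.18. PSME4 fell in GAD by 0.15 ± 0.06 (adjusted p = 0.0441), and its other 3 sets changed by 0.26, 0.37 and 1.08, so no direction is given for PSME4 in GAD. In QUE PSME3 fell by 0.34 ± 0.09 and PSME4 by 0.39 ± 0.10. PSMF1 encodes the inhibitor PI31. It rose in ENU, from 7.85 to 8.19 (median 8.02) to 8.22 to 8.67 (median 8.45), by 0.43 ± 0.09 (adjusted p = 0.00355), and in GAD by 0.43 ± 0.07 and MMS by 0.32 ± 0.10. A second set of PSMF1 changed by 0.34 in GAD but by 0.02 in ENU and 0.01 in MMS, and a dim set of PSMF1 changed the other way, by -0.22 ± 0.10 in ENU and -0.32 ± 0.15 in MMS.

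PSMB10, PSME2 and PSMG4 fell together in GAD, and their promoters are shown because the same 10 letters stand shortly before each start. The capitals mark matches to the element bound by interferon regulatory factors, searched as GAAA, any 2 bases, then GAAA. Source, length and orientation are as for PSMD3. PSMB10 spans chr16:67936851-67937100 on the minus strand, PSME2 spans chr14:24146611-24146860 on the minus strand and PSMG4 spans chr6:3258697-3258946 on the plus strand.
PSMB10: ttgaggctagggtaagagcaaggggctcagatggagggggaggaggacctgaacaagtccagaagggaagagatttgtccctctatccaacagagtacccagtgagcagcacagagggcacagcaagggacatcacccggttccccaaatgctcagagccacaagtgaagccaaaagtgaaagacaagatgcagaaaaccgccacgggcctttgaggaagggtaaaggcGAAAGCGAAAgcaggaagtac
PSME2: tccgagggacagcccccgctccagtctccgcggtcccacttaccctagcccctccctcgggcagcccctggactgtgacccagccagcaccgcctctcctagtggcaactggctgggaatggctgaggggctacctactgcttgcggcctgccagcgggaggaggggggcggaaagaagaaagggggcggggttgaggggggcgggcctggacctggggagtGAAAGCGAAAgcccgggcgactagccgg
PSMG4: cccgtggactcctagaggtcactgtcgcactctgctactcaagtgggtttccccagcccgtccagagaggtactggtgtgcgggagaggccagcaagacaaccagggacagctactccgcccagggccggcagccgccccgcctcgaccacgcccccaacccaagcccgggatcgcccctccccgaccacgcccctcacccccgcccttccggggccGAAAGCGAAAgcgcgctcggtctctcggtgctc
The matches begin 21, 28 and 33 bases before the starts, in that order, and each reads GAAAGCGAAA.

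RefSeq promoter windows, from 250 bases before to 50 after the start, were found for 37 of the 43 members, and a gene was counted if any of its windows held a motif on either strand. The interferon regulatory factor element was present in 7 of 37 members, or 18.9%, and in 4.38% of 27305 genes with a window. The 7 were PSMA4, PSMB4, PSMB8, PSMB10, PSME1, PSME2 and PSMG4. Holding the element and falling in GAD did not always go together. PSMB9, which fell most in GAD, held no match, while PSMA4 rose in GAD and PSMB4 was called in no compound. TGACNNNGC was present in 14 of 37, or 37.8%, and in 16.1% of all genes, with 6 of 23 among the 20S and 19S subunits, 3 of 5 among the immunoproteasome and PA28 genes (PSMB9, PSME1 and PSME2) and 4 of 6 among the assembly factors. Holding TGACNNNGC and rising in GAD did not always go together. PSMD6, PSMC6 and PSMD2 rose in GAD and held no match, while PSMB9, PSME1 and PSME2 held it and fell. CCAAT, the NF-Y box, was in 45.9% of members and 39.7% of genes. GAANNTTC, a heat shock element, was in 0 of 37 members and in 8.21% of genes. Matches of different motifs may overlap, and these shares carry no test.

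The response to GAD, the compound with most members higher, was then compared with that to each other compound in 1 fit of all 17 groups. GAD was picked from these same values, so counts of members higher in it were favoured by that choice and add no separate support. Against QUE, 29 members were higher in GAD, among them all 28 subunits of the 20S and 19S, where 23% of all genes were. Against ETP 24 were higher, with a background of 22.1%, and against NCS 27, with 31.9%. The counts were 21 against MMC (29.3%), 18 against H2O2 (28.8%) and 22 against ENU (25.5%), where the same controls stand on both sides. Against tBHQ 8 were higher (28.7%) and 9 lower, where 28.6% of all genes were lower. Among the 8 were PSMD2, by 0.74 ± 0.11 (adjusted p = 1.22e-08, limma), and PSMD6, by 0.37 ± 0.08 (adjusted p = 3.6e-05). Against BRO and CUR 0 members were higher by limma, with backgrounds of 15.3% and 14.5%, and against MMS 2 were, PSMD10 and PSMD4, with 10.2%. Members lower in GAD numbered 5 against BRO, 8 against CUR and 5 against MMS, with 13.8%, 18.8% and 14.4% of all genes lower. PSMB8, PSMB9 and PSME2 were lower in all 3 of these differences. PSMD3, for example, differed by 0.21 ± 0.16 between GAD and BRO and by 0.22 ± 0.16 between GAD and CUR, so differences of this size were within the error.

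PSMB9, picked here for the largest fall of any member, fell further in GAD than in any of the compounds where it was also lower. Because of that choice, the adjusted p of these differences add no separate support. The difference was -1.29 ± 0.15 against tBHQ (adjusted p = 1.01e-11), -1.33 ± 0.15 against ENU (adjusted p = 5.49e-12), -1.41 ± 0.22 against BRO (adjusted p = 2.06e-07) and -1.94 ± 0.22 against MMS (adjusted p = 2.64e-11), all in limma. PSMG4 did not separate GAD from ENU (0.02 ± 0.09, adjusted p = 0.889) or from BRO (-0.11 ± 0.13, adjusted p = 0.564). PSMD6 differed by 0.89 ± 0.11 between GAD and QUE (adjusted p = 2.48e-10), and PSMD12 by 0.73 ± 0.13 (adjusted p = 1.38e-06). With ETP replicate 2 and QUE replicate 2 left out, 30 members were higher in GAD than in QUE, with 24.3% of all genes, and 21 higher than in ETP, with 24.8%.

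**Figure D5:**
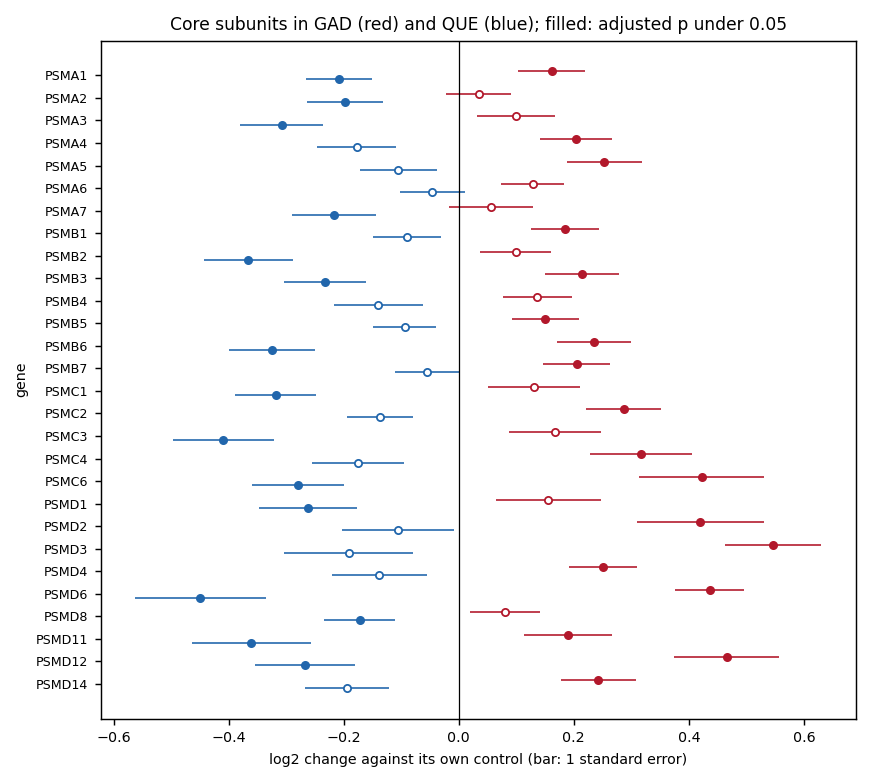
Log2 change of each of the 28 subunits of the 20S and 19S in GAD (red) and QUE (blue), each against its own control, with bars of 1 standard error; filled points passed an adjusted p under 0.05. All 28 red points lie above 0 and all 28 blue points below it.

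Genes around the proteasome were read from lists chosen with earlier results known, so their counts are descriptions, to be read against the shares of all genes called in each compound: 32.8% rose in GAD, 19.7% in MMS, 17.7% in tBHQ, 17.1% in ENU, 17% in QUE, 13.5% in BRO and 2.97% in CUR. Of 12 associated factors without a PSM symbol, 8 rose in GAD, 6 in MMS, 4 each in tBHQ and BRO, and 1 each in CUR, ENU and QUE. In QUE 2 fell, and in ENU and MMS 1 each. ZFAND2A (AIRAP), an arsenite-inducible partner of the proteasome, rose in all 7, by 2.44 ± 0.13 in GAD, 1.06 ± 0.14 in tBHQ and 0.83 ± 0.14 in QUE. ADRM1, a ubiquitin receptor of the 19S, rose in GAD by 0.77 ± 0.11 and in BRO, tBHQ and MMS by 0.43, 0.42 and 0.33. AKIRIN2, which carries proteasomes into the nucleus, rose in tBHQ (0.78 ± 0.08), BRO (0.57 ± 0.10) and GAD (0.33 ± 0.06).

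Among 12 regulators of proteasome genes, 8 rose in GAD and 2 fell, 5 rose in tBHQ, and 5 rose and 1 fell in BRO. In QUE 4 rose and 3 fell, and in MMS 3 rose and 3 fell. NFE2L1 itself was called only as lower, in MMS (by 0.26 ± 0.06) and QUE (by 0.21 ± 0.08). NFE2L2 was higher in GAD (0.20 ± 0.06) and BRO (0.21 ± 0.07) and lower in MMS (by 0.27 ± 0.06) and QUE (by 0.21 ± 0.07). DDI2, the protease that activates NRF1, rose in GAD (0.72 ± 0.10), QUE (0.63 ± 0.19), ENU (0.50 ± 0.07), BRO (0.50 ± 0.11) and tBHQ (0.25 ± 0.08). MAFG, a small partner of NRF1 and NRF2, rose in GAD, tBHQ, BRO and QUE by 1.15, 1.07, 0.85 and 0.58.

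Of 11 NRF2 targets, 11 rose in GAD and in tBHQ, 10 in BRO and in CUR, 8 in MMS, 7 in ENU, 6 in QUE and 1 in ETP, and 1 fell in MMS and in NCS. QUE thus raised part of this list while 20 proteasome members fell. Of 13 genes of ubiquitin supply and delivery, 8 rose in GAD, 6 in BRO and 4 in tBHQ, with SQSTM1, an autophagy and ubiquitin adaptor, up by 1.45, 1.40 and 1.39. Of the same list 2 rose in CUR and in MMS and 1 in ENU and in QUE, while 1 fell in GAD and in ENU, 2 in tBHQ and 3 in QUE. VCP, the segregase that extracts substrates, rose by 0.41 in both GAD and tBHQ and fell by 0.23 in QUE. Of 9 heat shock genes, 7 rose in MMS, 6 in GAD and 5 in ENU, and 2 fell in QUE.

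The antigen presentation genes differed between compounds. Of 11 tested, 6 fell in GAD and 0 rose, 6 fell and 1 rose in MMS, and 5 fell and 1 rose in BRO, where 29%, 15.4% and 16.8% of all genes fell. In ENU and in tBHQ 2 fell and 1 rose, and in QUE 2 fell and 4 rose. IRF1, a transcription factor of the interferon response, fell by 1.37 ± 0.14 in GAD, 1.08 ± 0.10 in MMS, 0.93 ± 0.17 in BRO, 0.83 ± 0.13 in tBHQ, 0.80 ± 0.20 in QUE and 0.63 ± 0.12 in ENU. TAP1, the peptide transporter encoded beside PSMB9, fell in GAD by 0.37 ± 0.08. It rose in QUE (1.32 ± 0.14), ETP (1.03 ± 0.20), ENU (0.80 ± 0.12), NCS (0.68 ± 0.09), MMS (0.34 ± 0.12) and BRO (0.21 ± 0.07). With QUE replicate 2 left out, TAP1 rose in QUE by 1.40 ± 0.13, IRF1 fell by 0.99 ± 0.11 and 9 of the 11 NRF2 targets rose, and without ETP replicate 2 TAP1 rose in ETP by 0.83 ± 0.11. PSMB9 and TAP1 thus moved in opposite directions in ENU, MMS and BRO and both fell in GAD.

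The 7 genes that only share the symbol were kept apart. PSMC3IP, a meiotic recombination factor, rose in MMS by 0.91 ± 0.14 and in GAD by 0.82 ± 0.17. PSMA3-AS1, an antisense RNA, rose in GAD (0.36 ± 0.09) and fell in QUE (by 0.37 ± 0.12) and tBHQ (by 0.29 ± 0.09), and PSMD6-AS2 rose in GAD (0.38 ± 0.10) and fell in QUE (by 0.33 ± 0.10). PSME3IP1 fell in ENU and QUE by 0.21 and 0.23. PSMD7-DT, PSMD14-DT and PSMG3-AS1 were under 4 in every group. Among the members, 17 had further bright probe sets. Of 66 pairs of a called change and another bright set of the same gene, 11 had opposite signs, all in PSME3, PSME4, PSMF1, PSMD9, PSMB2 or PSMD11.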

How the data were processed

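The authors deposited 1 log2 value per probe set and array. GCRMA and Partek are the tools named in the submitters' processing notes, without versions. They were used without further normalization. Of 54715 probe sets, 40920 carry 1 gene symbol in the platform annotation, 864 several and 12835 none. Each gene was read from its brightest probe set, by the mean of the 101 arrays, and was kept if its group mean reached 4 in 1 or more of the 17 groups. A repeat array of ETP_DMSO replicate 2 was averaged with the first, which left 100 samples.

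Each compound was compared with its control in limma 3.58.1 (R 4.3.3), with Benjamini-Hochberg adjustment over all 11496 genes and a threshold of 0.05. To compare compounds with each other, all 17 groups were put in 1 model. Values of different sets may have been normalized apart, so such differences rest on each compound's own control. The fits were tested on simulated data. Sample numbers were taken to pair the samples where every pair of same-numbered deviations correlated above 0.1. There r was 0.157 to 0.651 in QUE and at least 0.292 in the other paired compounds. MMS (-0.134 to 0.316) and ETP (-0.0023 to 0.649) were not paired. The calls, errors and adjusted p given here come from fits without pairing, unless the replicate block is named. With the block 26 members rose in GAD, 16 in BRO and 16 in tBHQ, where 36.6%, 20.3% and 28.4% of all genes rose. It called 9, 8 and 10 members lower, with backgrounds of 32.4%, 25.8% and 24.4%. Members, roles and gene lists were chosen with earlier results of these data known. Every member could be named, and the rule asked for those with the largest rises and falls in each compound and for PSMB5 to PSMB10, given here as values or as ranges. Alternatives were no filter, a minimum of 6, the mean of all probe sets, equal medians, quantile normalization, 1 fit, the replicate block, a 1.5-fold minimum and leaving out each sample. Promoters were read from RefSeq (GRCh38.p14) with Python 3.11.15, and 41 symbols did not match that annotation.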

Additional observations from a re-analysis of the deposited data

Results flagged for a closer look

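Among 51 groups and measures looked at, 4 held a sample far from the rest of its group, and chance flags about 1 in 20. The mean of the 20S and 19S subunits in CUR_DMSO replicate 5 was 10.286, where the other 5 controls were at 10.476 to 10.549. The mean of PSMB8, PSMB9 and PSMB10 in the library labelled QUE replicate 2 was 8.1798, where the other 5 were at 7.2965 to 7.4651. The same mean in QUE_DMSO replicate 1 was 7.5304, where the other 5 were at 7.9089 to 8.0578. The mean of the assembly factors in MMS replicate 1 was 9.184, where the other 5 were at 9.0218 to 9.0764.

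In 12 genes a member was called higher in 1 compound and lower in another. The difference itself was past the threshold in the fit of all groups (limma, adjusted over all genes). Because the readings were picked for opposite calls, the difference was nearly bound to pass, and its adjusted p adds no separate support. These came from 27 such readings over 55 pairs of compounds, and the largest for each gene is given here. Without QUE replicate 2 and ETP replicate 2, all 27 kept their sign and passed the threshold. Some rest on the brightest probe set alone. A dimmer set did not show the call for PSMB2 and PSMD12 in CUR, PSMD11 and PSMD12 in QUE, or PSMD9 in BRO. Against QUE, PSMD5 differed most: its change was 1.43784 higher in MMS (SE 0.21, adjusted p = 1.3e-07). PSMD6 and PSMD12 were 0.8854 and 0.73325 higher in GAD than in QUE, PSMC6 was 0.702267 higher and PSMB3 0.446667 higher. PSMB2 and PSMB6 were 0.87915 and 0.700133 higher in CUR than in QUE. PSMD11, PSMD1 and PSMA1 were 0.6899, 0.564717 and 0.458767 higher in tBHQ than in QUE, and PSMD8 was 0.399063 higher in ENU. PSMD9 was 0.555133 higher in tBHQ than in BRO (SE 0.07, adjusted p = 3.08e-09).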

How the results depend on the processing

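Counts of members called were those most open to the settings. Shares of all genes called move with the settings too and are not given in this section. These counts alone therefore do not separate the members from all genes. With a 1.5-fold minimum, 0 members were higher in ENU, GAD, tBHQ, BRO, MMS and CUR, and 2 were lower in ENU, 1 in tBHQ, 2 in BRO, 0 in MMS and 2 in QUE. With no filter 2 were higher in CUR, and 1 was higher in GAD than in MMS. With the mean of all probe sets 1 was higher in CUR, 1 in QUE, and 2 were higher in GAD than in CUR. In 1 fit of all groups 17 were higher and 4 lower in CUR, 4 lower in ETP and 1 higher in QUE. With equal medians 1 was higher in GAD than in MMS. The replicate block called 4 members higher and 8 lower in NCS, 10 lower in tBHQ, 17 higher and 4 lower in CUR, 3 lower in MMS and 2 lower in ETP; it moved no other count by over 1.5 times. Without QUE replicate 2 and QUE_DMSO replicate 1, chosen after seeing the data, 1 member was higher in QUE.

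Leaving out 1 sample at a time gave 0 to 1 lower in NCS, 7 to 12 higher in BRO, 4 to 12 higher in MMS, 2 to 10 higher and 0 to 3 lower in CUR, 0 to 1 higher and 0 to 1 lower in ETP, and 0 to 1 higher and 13 to 26 lower in QUE. Of 113 called changes, 108 stayed past the threshold under equal medians and under quantile normalization, 81 under every leave-out, and 88 with the mean of probe sets. With that mean 3 changes turned: PSME3 in GAD to 0.20 (adjusted p = 0.197), PSME4 in GAD to 0.39 (adjusted p = 0.000153) and PSMD9 in BRO to 0.00122 (adjusted p = 0.99). The cause was not tested. Doses were single, and protein and proteasome activity were not measured here.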
